A study of Homo sapiens with 4 samples.

Results

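Genes of the splicing machinery were examined in RKO cells, an established human colorectal cancer cell line, with and without knockdown of CHD7, a chromatin remodelling enzyme. The set held every gene in the deposited table whose symbol belonged to the HNRNP, SRSF, SNRP, SF3A, SF3B or U2AF families, leaving out hyphenated names. Its members were picked by name, although the families were chosen with earlier results of these data known. It comprised 54 of the 15357 genes in the table, with 21 HNRNP, 11 SRSF, 11 SNRP, 9 SF3 and 2 U2AF genes. Both groups were RKO cells stably infected with lentivirus: the vector group carried a control short hairpin RNA (n = 2), and the shCHD7_2 group carried a hairpin against CHD7 mRNA (n = 2). Only 1 CHD7 hairpin was sequenced, so an effect of losing CHD7 and an effect particular to that hairpin cannot be told apart. RNA was captured with oligo-dT beads, and all values therefore describe polyadenylated transcripts. The labels do not say whether the replicates came from separate cultures, so p-values measure the spread between these libraries, which may be technical.

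Introns are removed from pre-mRNA by the spliceosome, which is built on each intron from small nuclear ribonucleoprotein particles (snRNPs). SNRP genes encode the Sm ring and other protein parts of the snRNPs, SF3A and SF3B are subcomplexes of the U2 snRNP that contact the branch site, and U2AF recognises the polypyrimidine tract and the AG at the end of the intron. SR proteins, encoded by SRSF genes, mostly bind exons and promote their inclusion, while heterogeneous nuclear ribonucleoproteins (hnRNPs) coat nascent transcripts and often oppose inclusion. Many of these genes are needed in every dividing cell, and several limit their own transcripts by splicing them to forms that are degraded.

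The estimated counts summed to between 15734679 and 16068650 per library, and the 54 genes together took 1.38% to 1.45% of each total. CHD7 itself was at 85.4 and 91.0 CPM (counts scaled to a common library size, after TMM scaling) in vector and at 55.5 and 50.1 in shCHD7_2, a log2 fold change of -0.74 (SE 0.088, edgeR adjusted p = 4.15e-06). Of 9 colon epithelium markers, 6 were in the table; EPCAM, KRT8, KRT18 and CDX2 had a mean FPKM (fragments scaled by transcript length and library depth) of at least 1, while KRT20 and CDH1 were at or near 0 in all 4 libraries. The summed FPKM of these markers was 75.3 to 81.2 in vector and 81.6 to 90.3 in shCHD7_2. KRT18 was the largest part, at 56.1 and 51.85 FPKM in vector and at 58.47 and 65.62 in shCHD7_2. KRT8 went the other way, from 13.35 and 12.29 to 11.68 and 11.72. EPCAM was slightly higher in shCHD7_2 and CDX2 overlapped, so the sum does not describe the markers in general. Only 2 of 6 fibroblast, 2 of 4 leukocyte and 2 of 3 endothelial markers were in the table. Each of these lists summed to at most 0.34 FPKM in any library, with no gene at a mean of 1 or more.

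The splicing genes were abundant in RKO cells. Their median level in vector was 95.8 FPKM against 12.6 over the 11955 genes tested, and 53 of the 54 lay above that overall median. HNRNPA1 was the most abundant at 1116 ± 31.9 FPKM (mean ± SD, n = 2), followed by HNRNPA2B1 at 381 ± 4.42 and HNRNPK at 301 ± 0.057. SNRPB was the highest SNRP gene at 296 ± 27.6 FPKM, SF3B6 the highest SF3 gene at 263 ± 18.1, SRSF9 the highest SRSF gene at 157 ± 4.56 and U2AF1 the higher U2AF gene at 89.6 ± 6.10. The lowest member was SRSF8 at 11.0 ± 0.290 FPKM. In this order of levels, 22 of 53 neighbouring pairs were separated in both vector libraries, whereas the other pairs did not differ beyond their spread. All 54 genes passed the filter on low counts, the lowest single count being 563.

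CHD7 knockdown was accompanied by small decreases in 6 of the 54 genes, 4 of them HNRNP and 2 of them SRSF genes. HNRNPA2B1, HNRNPM, HNRNPH1, SRSF6, HNRNPAB and SRSF11 fell by between 0.25 and 0.38 on the log2 scale (edgeR's quasi-likelihood test, adjusted p under 0.05), and no member rose. The 6 genes were 11.1% of the members, against a background of 6.54% of all 11955 genes tested that fell and 4.94% that rose. The lowest member in CPM was HNRNPLL, at a mean of 38.5 in vector. Among the 5939 genes at least as abundant as this lowest member in mean log2 CPM, 8.87% fell and 4.66% rose. The members' share that fell was near that of this pool. The pool starts at the lowest member, so it does not match the members' abundance. None of the 54 reached an adjusted p under 0.05 together with a fold change of 1.5, a call made for 2.88% of all genes tested. At an unadjusted p under 0.05, 11 members were lower and 3 were higher, beside 1587 and 1448 of all 11955 genes tested. Of the 5939 genes at least as abundant as the lowest member, 1008 were lower and 715 higher on that rule. DESeq2 called 5 members lower and 0 higher, and limma on log2 FPKM called 5 lower and 1, SNRPA1, higher. Shares of all genes in these fits and in those leaving out a library are not given, so their counts have no background. With vector replicate 2 left out HNRNPA2B1 alone passed the test, while 4 members did without vector replicate 1, 9 without shCHD7_2 replicate 1 (7 lower and 2 higher) and 6 without shCHD7_2 replicate 2.

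**Figure D1:**
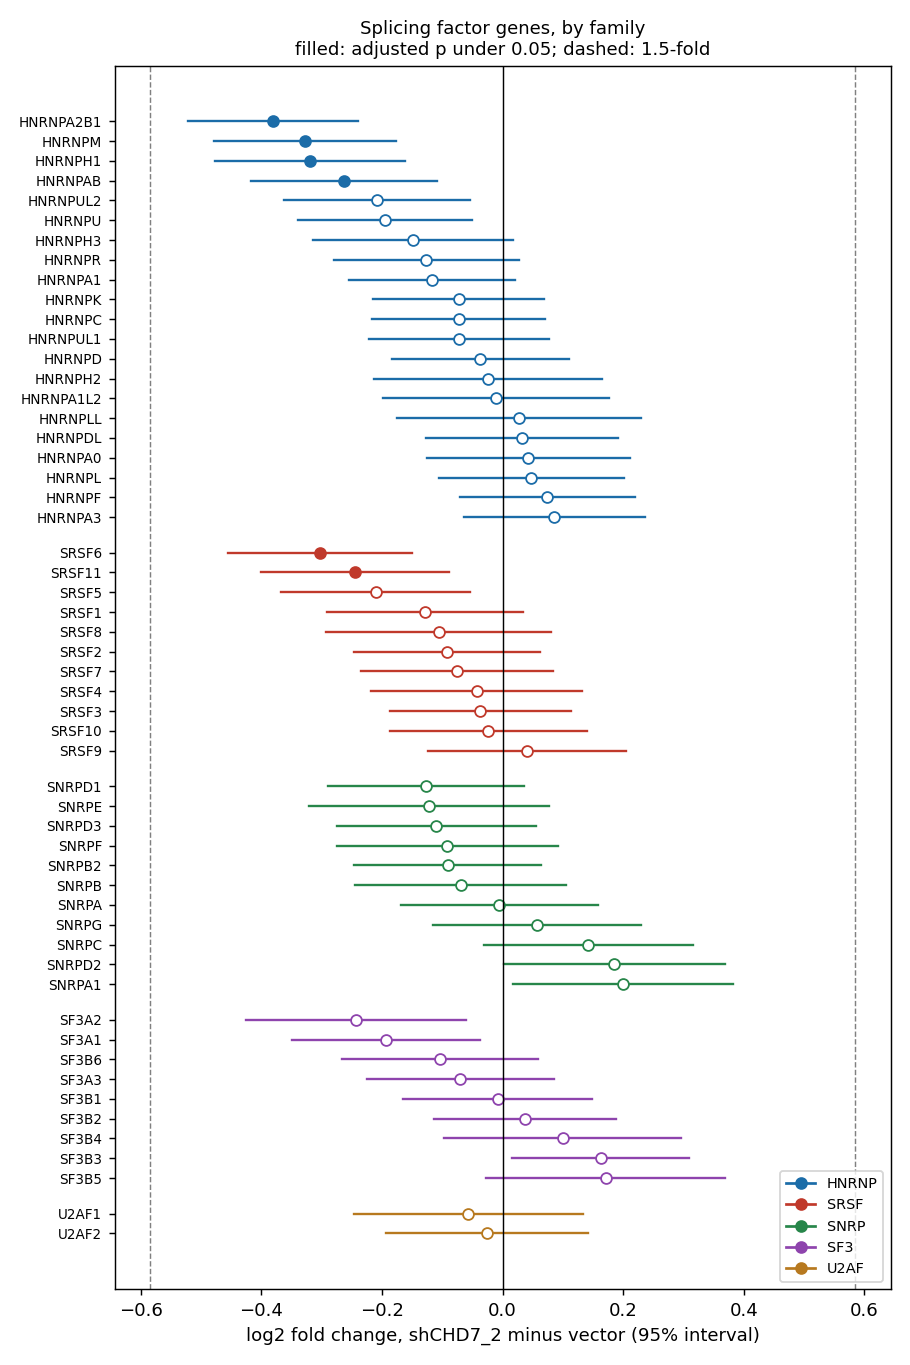
Log2 fold change of shCHD7_2 over vector (x axis, log2 units) for the 54 splicing factor genes grouped by family, with 95% intervals from edgeR; filled points have an adjusted p under 0.05 and dashed lines mark a 1.5-fold change. The 6 filled points are all to the left of 0 and belong to the HNRNP and SRSF families, and every interval lies between the dashed lines.

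Between these libraries, the size of any change was bounded closely. The standard errors of the 54 log2 fold changes ran from 0.067 (HNRNPA1) to 0.098 (HNRNPLL), and all 54 of the 95% intervals lay within a 1.5-fold change in either direction. Their extremes were -0.52 for HNRNPA2B1 and 0.38 for SNRPA1. The intervals rest on the spread between 2 libraries a group, which may be technical, and so do not bound the change across separate cultures. They also leave out the choice of scaling, which moved the median of all genes by 0.044.

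Across the members the log2 fold changes ran from -0.38 to 0.20 with a median of -0.071, whereas the median of all genes tested was 0.00056. They were negative for 39 genes, or 72.2% against 49.9% of all genes tested, and positive for 15. Among the 5939 genes at least as abundant as the lowest member, the median was -0.0125 and 53.2% were negative. The members' split moved with the scaling of the libraries: with library totals in place of TMM it became 30 negative and 24 positive with a median of -0.027, and the median of all genes moved to 0.045. The negative shares were then 55.6% of members and 40.7% of all genes. On log2 FPKM the split was 32 negative and 22 positive, or 59.3% negative beside 40.8% of all genes. The members' median was therefore below that of all genes by a similar distance on each scale. The number of negative members was not stable, and the negative share of all genes moved with it.

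Library by library, both shCHD7_2 values were below both vector values for 28 members, or 51.9%, against a background of 27.3% of all genes tested. Both were above for 5 members, or 9.26%, against 26.4%, and the libraries overlapped for 21. Among the 5939 genes at least as abundant as the lowest member, the shares were 31.6% below and 24.8% above. With library totals the members' counts became 19 below and 11 above, beside 20.9% and 33.9% of all genes, and with FPKM they were 18 and 10, beside 20.7% and 33.8%. By family, the libraries were separated downwards for 13 of 21 HNRNP, 8 of 11 SRSF, 3 of 11 SNRP, 4 of 9 SF3 and 0 of 2 U2AF genes. Separation upwards was seen for 1 HNRNP, 0 SRSF, 3 SNRP, 1 SF3 and 0 U2AF genes.

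**Figure D2:**
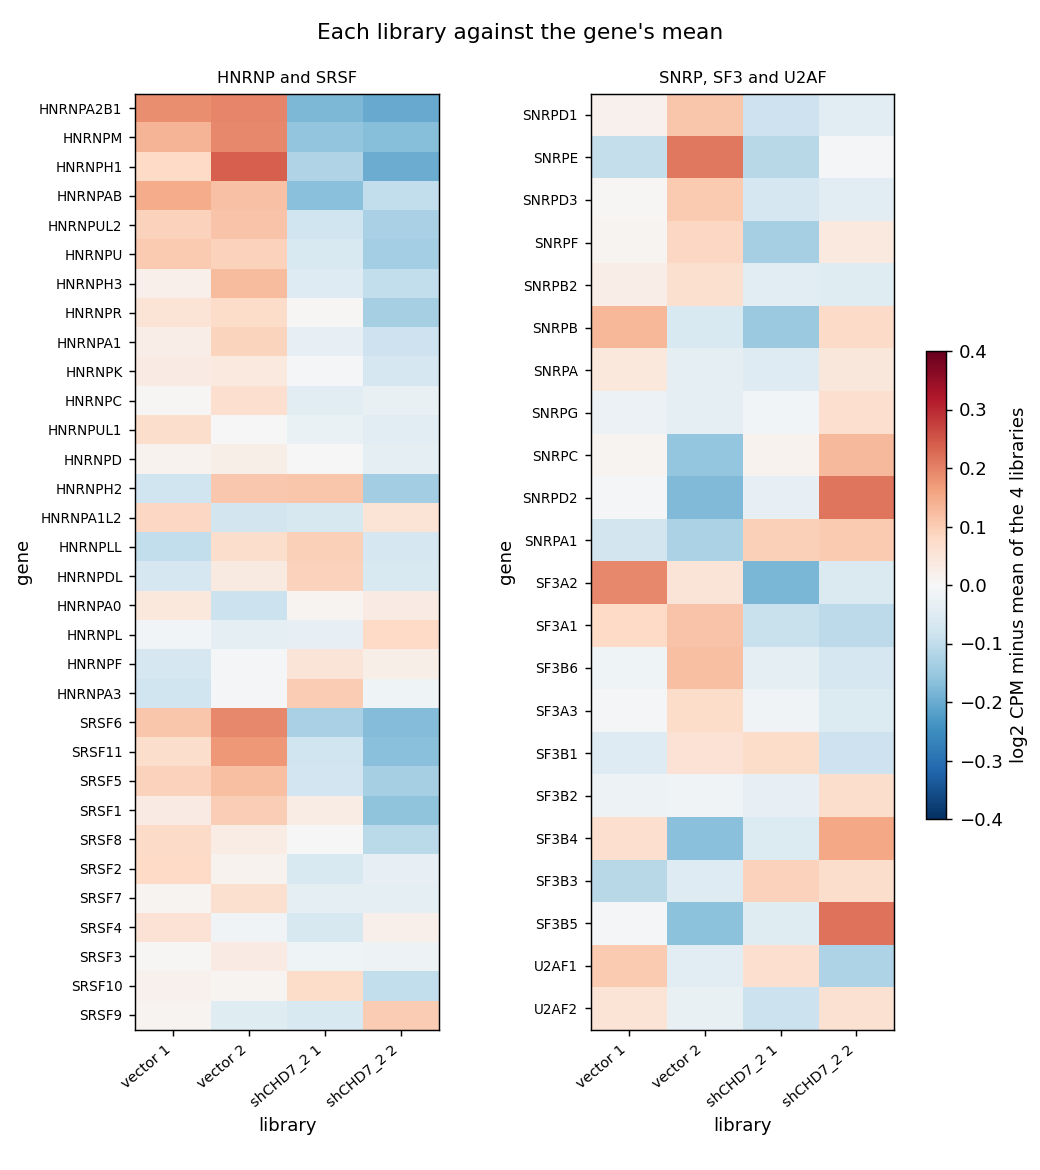
Log2 CPM of each of the 54 genes (rows) in each of the 4 libraries (columns) minus the gene's mean over the libraries, where red is above and blue below that mean. The 2 shCHD7_2 columns are blue for most HNRNP and SRSF genes, while several SNRP and SF3 genes differ most between the libraries of 1 group.

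HNRNPA2B1 encodes the A2 and B1 proteins, core components of the hnRNP particle. It stood at 894 and 900 CPM in vector and at 693 and 684 in shCHD7_2. The libraries of each group lay close together and the groups far apart, and the mean fell by 23.2%, a log2 fold change of -0.38 (SE 0.068, edgeR adjusted p = 0.000602). Its FPKM fell along with its count, from 381 ± 4.42 to 300 ± 9.64. The gene lies on chromosome 7 at 26173057-26201529, minus strand (GENCODE 29, GRCh38). It passed the test in every setting tried except limma on FPKM with no filter on low values.

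HNRNPM, which binds GU-rich RNA and regulates alternative exons, was at 295 and 307 CPM in vector and at 241 and 239 in shCHD7_2. Its log2 fold change was -0.33 (SE 0.073, edgeR adjusted p = 0.00404), with an adjusted p of 0.132 without vector replicate 2 and of 0.00127 to 0.132 over 13 alternatives, a set that here and in the ranges that follow leaves out a crossed pairing of the replicates given with the limits. HNRNPH1, a protein of G-rich splicing elements, was at 356 and 397 CPM in vector and at 310 and 293 in shCHD7_2, so that the vector libraries were further apart than those of the knockdown. The groups did not overlap, and the log2 fold change was -0.32 (SE 0.076, edgeR adjusted p = 0.00689). Without vector replicate 2 it was -0.24 (edgeR adjusted p = 0.293, within a range of 0.00041 to 0.293 over these 13 alternatives). Its close relative HNRNPH2 was at 113 and 129 CPM in vector and at 129 and 108 in shCHD7_2, which overlap. The sum of both genes had a log2 ratio of -0.24. HNRNPAB, an RNA-binding protein of the A/B group, was at 207 and 203 CPM in vector and at 167 and 175 in shCHD7_2. Its log2 fold change was -0.26 (SE 0.075, edgeR adjusted p = 0.0233), with an adjusted p of 0.0139 to 0.22 over the same 13; it was lost when vector replicate 1, vector replicate 2 or shCHD7_2 replicate 1 was left out, at adjusted p-values of 0.22, 0.193 and 0.0569.

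SRSF6, an SR protein that binds exonic enhancers, was at 269 and 285 CPM in vector and at 228 and 221 in shCHD7_2, a log2 fold change of -0.30 (SE 0.074, edgeR adjusted p = 0.00829). Its adjusted p was 0.226 without vector replicate 2 and 0.00256 to 0.226 over the 13 alternatives. SRSF11, an SR-rich protein able to bind U2AF, was at 261 and 280 CPM in vector and at 235 and 221 in shCHD7_2. The nearest libraries of the 2 groups were 261 and 235, and the log2 fold change was -0.25 (SE 0.075, edgeR adjusted p = 0.0361). SRSF11 was the least stable of the 6, with an adjusted p of 0.00897 to 0.473 over the 13 alternatives and a call in 3 of them. It was lost without vector replicate 1, vector replicate 2 or shCHD7_2 replicate 2, at adjusted p-values of 0.11, 0.473 and 0.126. None of the 6 genes had a fractional count, which would show reads shared with another gene, in any library.

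**Figure D3:**
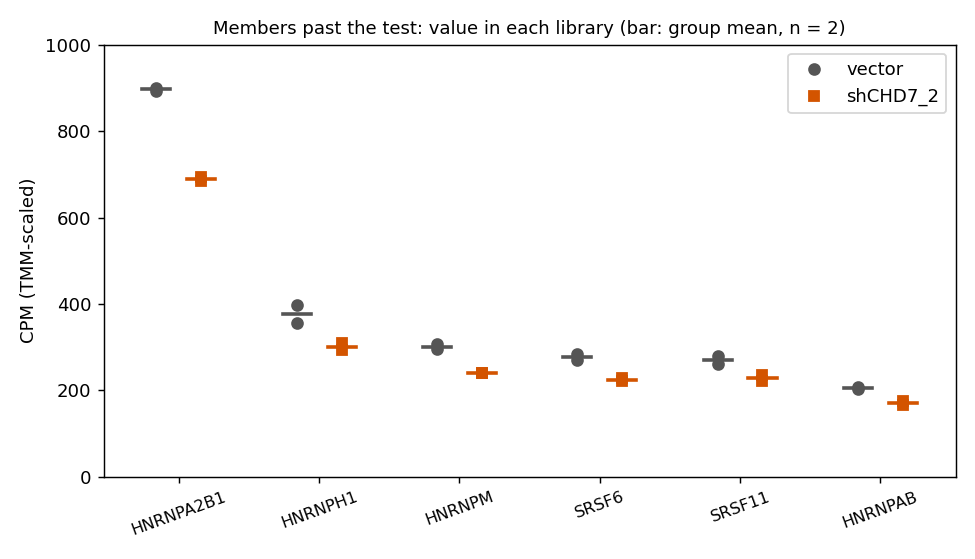
TMM-scaled CPM (y axis, from 0) of the 6 genes that fell, in the 2 vector libraries (grey circles) and the 2 shCHD7_2 libraries (orange squares), with bars at the group means. For each gene both knockdown libraries lie below both control libraries, and HNRNPA2B1 has the widest gap, from 897 to 689 CPM on average.

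The other HNRNP genes changed little. HNRNPA1, which binds exonic silencers and is the most abundant member, was at 1798 and 1880 CPM in vector and at 1725 and 1666 in shCHD7_2. Both knockdown libraries were lower, yet the log2 fold change of -0.12 (SE 0.067) did not pass the test (edgeR adjusted p = 0.284). Some of its counts were fractional, and the sum with its near copy HNRNPA1L2 had a log2 ratio of -0.11. HNRNPK, a protein of C-rich RNA, was at 836 and 839 CPM in vector and at 814 and 779 in shCHD7_2, with a log2 fold change of -0.073 (edgeR adjusted p = 0.553). HNRNPU, a nuclear matrix protein, was at 723 and 717 CPM in vector and at 646 and 612 in shCHD7_2, with a log2 fold change of -0.20 that missed the threshold (edgeR adjusted p = 0.0735). HNRNPUL2 stood beside it at a log2 fold change of -0.21 (edgeR adjusted p = 0.0739). HNRNPF, a relative of HNRNPH1, was the only HNRNP gene with both knockdown libraries higher, at 542 and 565 CPM in vector and at 588 and 578 in shCHD7_2 (log2 fold change 0.074, edgeR adjusted p = 0.553). Summed over the 21 genes, HNRNP counts were 9091 ± 164 CPM in vector and 8388 ± 195 in shCHD7_2 (mean ± SD, n = 2), a log2 ratio of -0.12. On FPKM that ratio was -0.082. The family's median log2 fold change was -0.073, and -0.029 with library totals and -0.11 without shCHD7_2 replicate 1.

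Among the HNRNP genes not yet described, 5 had both knockdown libraries lower without passing the test. HNRNPC, which binds uridine tracts and packages long transcripts, was at 641 and 668 CPM in vector and at 619 and 625 in shCHD7_2. HNRNPR was at 315 and 319 CPM against 304 and 277, and HNRNPH3, another relative of HNRNPH1, at 124 and 133 against 118 and 114. HNRNPD, which binds AU-rich elements and is also called AUF1, was at 340 and 342 CPM against 336 and 329. HNRNPUL1, a relative of HNRNPU, was at 348 and 331 CPM against 325 and 321. Their log2 fold changes lay between -0.15 (HNRNPH3) and -0.037 (HNRNPD), with edgeR adjusted p from 0.252 to 0.795. The other 5 had overlapping libraries and values of the other sign: 0.085 for HNRNPA3, 0.048 for HNRNPL, 0.043 for HNRNPA0, 0.032 for HNRNPDL and 0.028 for HNRNPLL, on the log2 scale. HNRNPL, a protein of CA-rich elements, was at 255 and 250 CPM in vector and at 251 and 271 in shCHD7_2, and HNRNPA3 at 474 and 498 against 536 and 495, so that 1 knockdown library was high in each case and the other was not.

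In the SRSF family 10 of 11 log2 fold changes were negative and the median was -0.092, or 7 of 11 with a median of -0.048 under library totals. These negative shares were 90.9% and 63.6%, against 49.9% and 40.7% of all genes tested. SRSF5, a delayed early gene of growth stimulation, was at 174 and 177 CPM in vector and at 155 and 149 in shCHD7_2. These libraries did not overlap, but the log2 fold change of -0.21 (SE 0.076) missed the threshold (edgeR adjusted p = 0.0764). SRSF1, the founding SR protein, was at 266 and 279 CPM in vector and at 266 and 233 in shCHD7_2, where the nearest libraries were 265.98 and 265.80, and its log2 fold change was -0.13 (edgeR adjusted p = 0.322). SRSF2, a constituent of nuclear speckles, was at 218 and 208 CPM in vector and at 198 and 201 in shCHD7_2 (log2 fold change -0.092, edgeR adjusted p = 0.474). SRSF3 was almost level, at 253 and 258 CPM against 249 and 249. SRSF9 was the only SRSF gene with a positive value, 0.041, and its libraries overlapped. SRSF7 (139 and 144 CPM against 134 and 134) and SRSF8 (47.5 and 46.0 against 45.0 and 41.8) were lower in both knockdown libraries, at log2 fold changes of -0.076 and -0.11, and SRSF4 and SRSF10 overlapped, at -0.043 and -0.024. The SRSF genes summed to 2063 ± 27.8 CPM in vector and 1891 ± 40.3 in shCHD7_2, a log2 ratio of -0.13, or -0.062 on FPKM.

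None of the 11 SNRP genes passed the test. Their median log2 fold change was -0.070, but it was 0.030 without vector replicate 1 and 0.033 without shCHD7_2 replicate 1, so no direction can be given for the family. SNRPB, a protein of the Sm ring, was at 304 and 265 CPM in vector and at 250 and 292 in shCHD7_2, with a spread in each group wider than the difference between their means. SNRPD2, another Sm protein, was at 141 and 126 CPM in vector and at 139 and 165 in shCHD7_2, with a log2 fold change of 0.19 (SE 0.089, edgeR adjusted p = 0.191). Without shCHD7_2 replicate 1 its log2 fold change was 0.30 (edgeR adjusted p = 0.0121, within a range of 0.0121 to 0.783 over the 13 alternatives). SNRPG was at 80.1 and 79.4 CPM in vector and at 80.7 and 85.2 in shCHD7_2 (log2 fold change 0.058, edgeR adjusted p = 0.718). SNRPA1, the A-prime protein of the U2 snRNP, had the highest log2 fold change of all 54 genes, 0.20 (SE 0.088, edgeR adjusted p = 0.155), at 44.9 and 43.3 CPM in vector and 50.5 and 50.8 in shCHD7_2. SNRPC, a U1 protein, had 122.1 and 109 CPM in vector and 122.4 and 132 in shCHD7_2. The 3 genes with both knockdown libraries lower were SNRPD1 (133 and 142 CPM against 124 and 128), SNRPD3 (122 and 131 against 116 and 118), both of the Sm ring, and SNRPB2 of the U2 snRNP (171 and 176 against 163 and 163), at log2 fold changes of -0.13, -0.11 and -0.091. SNRPE, SNRPF and SNRPA overlapped, at -0.12, -0.092 and -0.0056. In sum the SNRP genes were at 1389 ± 23.7 CPM in vector and 1372 ± 78.4 in shCHD7_2, a difference smaller than the spread of the knockdown libraries. Their log2 ratio was -0.017 on CPM and 0.054 on FPKM.

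In the SF3 family none of the 9 genes passed the test. The 3 SF3A genes, whose products form a trimer, were negative at -0.24 for SF3A2, -0.19 for SF3A1 and -0.070 for SF3A3, and all 3 had both knockdown libraries below both vector libraries. SF3A2 was at 85.5 and 77.7 CPM in vector and at 65.9 and 71.9 in shCHD7_2 (edgeR adjusted p = 0.0772), and SF3A1 was at 174 and 179 against 155 and 154 (edgeR adjusted p = 0.102). Without shCHD7_2 replicate 2, SF3A2 passed the test. Of the 6 SF3B genes 4 were positive, with a median of 0.068 that was 0.013 without shCHD7_2 replicate 2 and 0.12 without shCHD7_2 replicate 1. The SF3A and SF3B genes were not tested against each other. SF3B3, a large scaffold subunit, was at 380 and 396 CPM in vector and at 437 and 431 in shCHD7_2 (log2 fold change 0.16, SE 0.071, edgeR adjusted p = 0.148). SF3B6, which touches the branch site, was at 155 and 170 CPM in vector and at 153 and 150 in shCHD7_2. SF3B2 was at 325 and 326 against 322 and 346, and SF3B5 at 71.2 and 63.9 against 69.1 and 83.0. For SF3B5 the log2 fold change of 0.17 (edgeR adjusted p = 0.273) became 0.29 (edgeR adjusted p = 0.0364, within a range of 0.0364 to 0.901 over the 13 alternatives) without shCHD7_2 replicate 1. SF3B4 was at 84.3 and 71.6 CPM in vector and at 77.5 and 89.5 in shCHD7_2, which overlap. SF3B1, a subunit often mutated in myelodysplasia, was at 401 and 433 CPM in vector and at 437 and 393 in shCHD7_2, with a log2 fold change of -0.0079 and a 95% interval of -0.16 to 0.15. The SF3 genes summed to 1896 ± 36.8 CPM in vector and 1907 ± 3.50 in shCHD7_2. The median of the 9 log2 fold changes was -0.0079. It was 0.036 with library totals, where the median of all genes was 0.045, so this change of sign went with the scaling. It was -0.091 without shCHD7_2 replicate 1 and -0.063 without vector replicate 1. Without vector replicate 2 it was -0.013, and without shCHD7_2 replicate 2 it was -0.014. The median was thus close to 0 in some fits and moved with single libraries, so no direction can be given.

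U2AF1 and U2AF2, the small and large subunits of U2AF, overlapped between the groups. U2AF1 was at 76.1 and 68.5 CPM in vector and at 74.1 and 64.9 in shCHD7_2 (log2 fold change -0.057, edgeR adjusted p = 0.749). U2AF2 was at 141 and 133 CPM against 128 and 141 (log2 fold change -0.026, edgeR adjusted p = 0.88). U2AF1 has a near-identical copy, U2AF1L5, whose value moved between 7.79 and 19.5 CPM in libraries of the same group. The sum of U2AF1 and U2AF1L5 was steadier than either, at 85.9 and 86.3 CPM in vector and 81.9 and 84.4 in shCHD7_2.

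Other genes of the splicing pathway were read from a list of 81 further snRNP, spliceosome, kinase and regulator genes, of which 80 were in the table and 79 were tested. Of these, 7 fell and 1 rose, or 8.86% and 1.27% against the backgrounds of 6.54% and 4.94% given above, and the median log2 fold change was -0.045. DESeq2 called 5 lower and 0 higher. PHF5A, a small subunit of the SF3B complex, had the largest decrease of the 79 and was the only one past a 1.5-fold change. It was at 58.9 and 59.8 CPM in vector and at 37.2 and 41.7 in shCHD7_2, a log2 fold change of -0.59 (SE 0.091, edgeR adjusted p = 0.000115). That value is just beyond 1.5-fold, and it fell short at -0.55 with library totals, -0.54 on log2(FPKM + 1), -0.58 without vector replicate 2 and -0.51 without shCHD7_2 replicate 1. Both knockdown libraries were well below those of vector, whereas none of the 6 SF3B genes of the rule passed the test.

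PTBP3, a polypyrimidine tract binding protein, was at 235 and 249 CPM in vector and at 182 and 153 in shCHD7_2 (log2 fold change -0.53, edgeR adjusted p = 0.000139), and it passed 1.5-fold, at -0.66, without shCHD7_2 replicate 1. RBMX, also called hnRNP G, was at 354 and 370 CPM against 275 and 266 (log2 fold change -0.42, edgeR adjusted p = 0.000396). TXNL4A, a component of the tri-snRNP, was at 65.1 and 66.7 CPM against 46.3 and 49.4 (log2 fold change -0.46, edgeR adjusted p = 0.000977). These 3 genes had no overlap between the groups. The other decreases were smaller, at -0.31 for SYF2 and -0.35 for ISY1, both proteins of the catalytic spliceosome, and -0.28 for TIA1, which binds U-rich RNA after the donor site. The fall of TIA1 was seen in counts but hardly in FPKM, which overlapped at 23.0 and 22.2 in vector against 22.6 and 19.9 in shCHD7_2. On log2(FPKM + 1) its log2 fold change was -0.088, and its call was also lost with DESeq2 and with library totals. The gene that rose was AQR, an intron-binding helicase, from 71.6 and 78.2 CPM to 92.9 and 88.4 (log2 fold change 0.28, edgeR adjusted p = 0.0376). These last 4 calls were lost without vector replicate 1 and without vector replicate 2, at adjusted p-values of 0.0774 and 0.224 for SYF2, 0.0714 and 0.127 for ISY1, 0.102 and 0.345 for TIA1, and 0.378 and 0.119 for AQR. ISY1 (0.0827) and AQR (0.109) were also lost without shCHD7_2 replicate 1, and TIA1 (0.181) without shCHD7_2 replicate 2.

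The 3′ untranslated regions (UTRs) of the splicing genes were searched on the sense strand for the word AGCTATT, for the word GAAGCTA and for the word GCTATTA, which had come up in an earlier analysis of lower genes in the same libraries and so describe these data rather than test them. The first and the last of these overlap by all but 1 letter. At least 1 word was present in the longest annotated 3′ UTR of 14 of the 54 members (25.9%), beside 22.3% of 11688 genes tested and 54.8% of the 768 genes that fell. Of the 6 members that fell, 2 held a word, HNRNPA2B1 and HNRNPAB, as did 12 of the 48 others. The median log2 fold change was -0.099 for members with a word and -0.070 for those without. Over all genes tested with a 3′ UTR these medians were -0.079 and 0.021, and for the other splicing genes -0.126 and -0.036. The median 3′ UTR length was 1083 bases for members, 1361 for all genes tested and 1739 for all genes that fell. The part of that length in holding a word was not tested. Of the 78 other splicing genes with a 3′ UTR, 20 (25.6%) held a word, among them 4 of the 7 that fell and AQR, which rose. The sites of HNRNPA2B1 and HNRNPAB are printed to show where the words sit in the genes discussed above, in the sense strand of GRCh38 with the words in capitals. They lie at chr7:26191949-26191978 (minus strand) and chr5:178211111-178211140 (plus strand). The part of these words in the decreases was not tested.
HNRNPA2B1: aagttttgaaaAGCTATTAgccaggatcat
HNRNPAB: acctggatattGAAGCTAtccaagcttttg

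HNRNPM (chromosome 19, 8444767-8489114), HNRNPH1 (chromosome 5, 179614178-179634784), SRSF6 (chromosome 20, 43457928-43464247) and SRSF11 (chromosome 1, 70205682-70253052) fell without any of the words in their 3′ UTRs. The 6 genes that fell lie on chromosomes 1, 5, 7, 19 and 20, with HNRNPAB and HNRNPH1 both on chromosome 5. In these bulk samples, less RNA per cell and fewer cells with the RNA cannot be told apart for any of these genes.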

How the data were processed

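Poly-A RNA of RKO cells was sequenced in 2 vector and 2 shCHD7_2 libraries. The authors deposited an estimated count per gene, not normalised, and FPKM values, which they had scaled by gene length and depth. The submitters' processing notes name Bowtie2, RSEM, DESeq2 and hg38; the annotation is not given in the sources used here. Between 13.6% and 14.7% of counts per library were fractional, including those of 14 members; counts were rounded. In R 4.3.3 with edgeR 4.0.16, genes were filtered by filterByExpr and scaled by TMM, and 11955 were put through the quasi-likelihood test, with p-values adjusted by Benjamini-Hochberg, at an adjusted p under 0.05 and, for fold calls, 1.5-fold. Standard errors came from the F statistic. Alternatives used DESeq2 1.42.0 and limma 3.58.1 on log2(FPKM + 1). With 2 against 2 libraries, a permutation test cannot give a two-sided p below 0.333. Figures used matplotlib 3.10.9, and the fit was tested on simulated data.

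Members and lists were chosen with earlier results of these data known. Named genes were members past the test, the 3 most abundant per family by FPKM in vector, and the other splicing genes past 1.5-fold with the 6 next by p; SF3A and SF3B counted as 1 family. Further genes given with values, AQR among them, were chosen after their values were seen. Word positions and locations are from GENCODE 29. The sites of some other splicing genes are not reported here.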

Additional observations from a re-analysis of the deposited data

How the results depend on the processing

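No member reached the 1.5-fold call in any of 13 other ways of processing, and in these every change of a member that passed the test was a decrease except SNRPA1 on FPKM and SNRPD2 and SF3B5 without shCHD7_2 replicate 1. Of the members, 6 passed the test, against 1 with no filter on low counts and 0 in limma on FPKM with no filter. Leaving out 1 replicate gave 1 to 9 members (1 without vector replicate 2, 4 without vector replicate 1), 4 to 7 of the other splicing genes against 8, and medians of -0.084 to -0.058; the single library left in an arm is assumed to vary like the others. The other splicing genes numbered 5 with DESeq2, 2 with no filter, and 0 in limma with no filter. The members' median of -0.071 was -0.027 with library totals and -0.029 with FPKM and a pseudocount of 1 (with or without the filter) or 0.1, as scaling moved the median of all genes by 0.044. CHD7 was at -0.51 in limma with no filter (adjusted p = 0.104, the highest of a range from 1.19e-11 over the 13). HNRNPAB also lost its call with library totals, no filter, the replicate block and unfiltered limma, and SRSF11 with these, DESeq2 and filtered limma. Replicate numbers are shared between the groups, but deviations of same-numbered libraries correlated at -0.198 over 11955 genes. That value shows no pairing by number, yet with 2 libraries a group it cannot settle the point. With the replicate block 3 members (HNRNPA2B1, HNRNPH1 and HNRNPM) and 4 other splicing genes passed. A crossed pairing, chosen after this correlation was seen, gave 20 members (15 lower and 5 higher) and 28 other splicing genes (23 lower and 5 higher), with SNRPD2 and SF3B5 among the higher members. CHD7 had an edgeR adjusted p of 9.76e-34 with the crossed pairing, against 4.15e-06 without a block. The share of all genes passing in the crossed fit is not given, so these counts cannot be set against a background. Replicates differed beyond sampling noise. With 2 libraries a group, and without a block, no member whose log2 fold change was under 0.24 in size passed the test in edgeR on all 4 libraries.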

Other observations

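SNRP genes differed between the 2 knockdown libraries. Of the 11 SNRP genes, 10 were higher in shCHD7_2 replicate 2 than in replicate 1, with a median log2 ratio of 0.097, beside 5990 of 11955 genes tested and a median of 0.00036. The same comparison gave 5 of 21 HNRNP genes (median -0.047), 4 of 11 SRSF genes (median -0.044) and 4 of 9 SF3 genes (median -0.013). The ratio was 0.25 for SNRPD2, 0.22 for SNRPB and 0.26 for SF3B5, and -0.25 for HNRNPH2. In vector, 5 of 11 SNRP genes (median -0.013) and 15 of 21 HNRNP genes (median 0.021) were higher in replicate 2, beside 6180 of all genes tested. The SNRP transcripts were the shortest of the 4 larger families, with a median effective length of 1056 bases, against 2495 for HNRNP, 2983 for SRSF and 2698 for SF3 genes. These are counts over genes of single libraries, without a test, and the part of transcript length in them was not tested.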
